A study of Mus musculus with 9 samples.

Results

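The genes described here are 32 markers of brain endothelial cells and of the blood-brain barrier, read in RNA sequencing of mouse embryonic cortex. They were listed by name with no threshold on measured values, but with earlier results of these data known. All 32 have a row among the 18820 genes of the deposited table, and all 32 have a mean of at least 10 normalized counts, so that they are among the 15069 genes tested. The samples are 9 cortex libraries from C57BL/6J embryos at embryonic day 18.5. Of these, 3 are wild type (WT), 3 are heterozygous for a Cyfip2 mutation (Het) and 3 are Cyfip2 knockout (KO). Cyfip2 encodes a subunit of the WAVE complex, which drives branched actin assembly. The labels give no other allele, do not describe how the mutation was made and do not state that the 3 libraries of a genotype come from separate embryos. All p-values therefore measure the spread between these libraries.

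Brain capillaries are lined by endothelial cells that are sealed by tight junctions and carry transporters in place of open passage. New brain vessels grow by sprouting under VEGF, led by tip cells, while TIE receptors steady the vessel wall and Wnt7 signals from neural cells turn on the barrier programme. Endothelial identity is kept by ETS factors such as ERG and FLI1 and by the SOXF factors SOX7, SOX17 and SOX18. In mouse cortex these vessels grow in from the covering meninges before birth, so that meningeal tissue left on a dissection brings vessels of its own.

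Cyfip2 was read as a check of the labels. Its normalized counts were 10169 to 11174 in WT, 8969 to 9882 in Het and 7522 to 8255 in KO, with no overlap between the genotypes. Between KO and WT it differed by -0.42 ± 0.06 (SE) on the log2 scale, with a limma adjusted p of 0.678. The KO libraries held 71.2% to 78.2% of the WT mean, so most of this RNA remained. All KO libraries lay below all WT libraries in 3.3% of all genes, so the order is a weak check. Approximate depth was 29.5 M to 54.5 M reads per library (M, 1e6). Several libraries stood apart in tissue and sex. Cdhr1, a marker of the olfactory bulb, was at 2138 to 3436 in 4 libraries (WT replicate 3, Het replicate 1, and the first 2 KO replicates) and at 21.8 to 53.1 elsewhere. By Y-linked genes 3 libraries were female, those being Het replicate 1 and the first 2 KO replicates, and the other 6 were male. Ttr, made by choroid plexus, reached 11029 in Het replicate 2 and 3156 in WT replicate 2. The summed level of 12 meningeal fibroblast genes ranged from 13143 to 31687 in 8 libraries but was only 529 in Het replicate 3.

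Levels between genes are compared as normalized counts per kb of annotated exon in the 3 WT libraries. The most abundant per kb was the tight junction protein gene Cldn5 (ENSMUSG00000041378, chr16:18776847-18778262 in GRCm38, plus strand), at 1422 ± 17.1 (SD, n = 3). It was followed by Slc2a1, the glucose transporter GLUT1, at 815 ± 86.6, and by Mfsd2a, which carries lysophospholipid-bound docosahexaenoic acid, at 499 ± 11.5. Cdh5, the cadherin of endothelial adherens junctions, stood at 384 ± 19.4, beside the thyroid hormone and organic anion transporter gene Slco1c1 at 329 ± 41.0, and the WT libraries of these genes overlapped. The 32 genes spanned 4.21 to 1422, with a median of 128. The lowest were the organic anion transporter gene Slco1a4 at 4.21 ± 2.62 and the tip cell proteoglycan gene Esm1 at 10.3 ± 0.280. The markers that define endothelium, Cdh5, Pecam1, Kdr and Tie1, were present in every library, with a lowest normalized count of 468 for Tie1 in Het replicate 3.

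**Figure D1:**
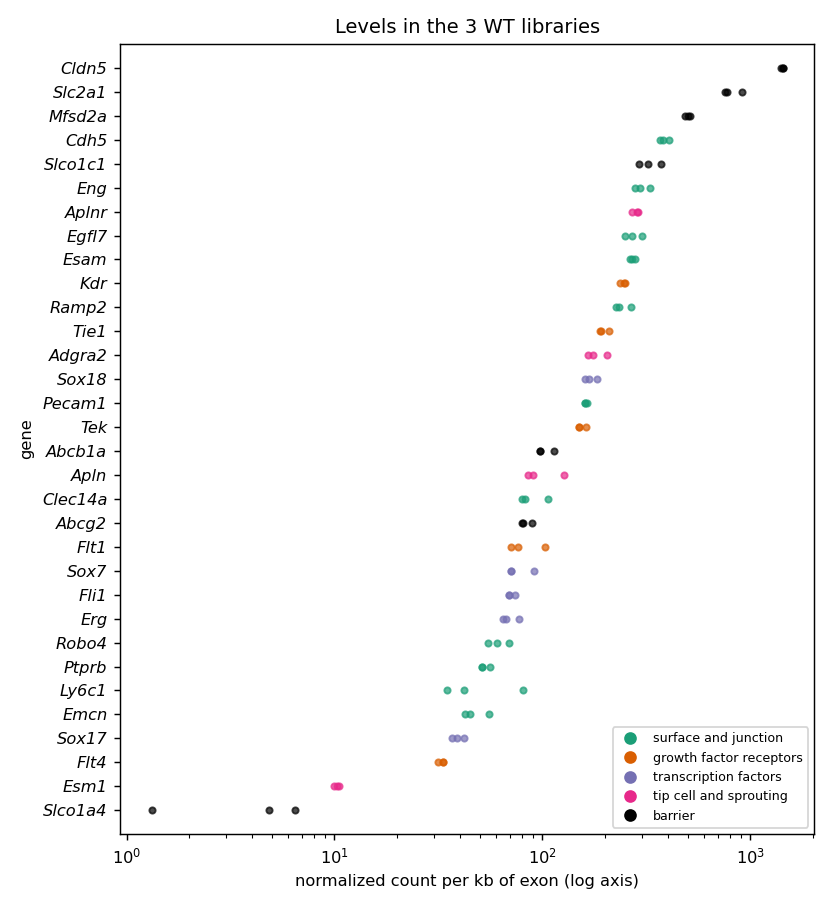
Normalized counts per kb of exon (horizontal, log axis) of each of the 32 genes (vertical) in the 3 WT libraries, with 1 point per library, coloured by role. Cldn5 is highest at a mean of 1422 and Slco1a4 lowest at 4.21, and most genes vary little among WT libraries.

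Between KO and WT, 30 of the 32 genes had higher means on the log2 scale in KO, with a median log2 fold change of 0.29, where the median over all genes tested was -0.00. None passed the test: limma called 0 of 32 at an adjusted p under 0.05, and 0 of all 15069 genes (0.0% higher and 0.0% lower). At an unadjusted p under 0.05 there was 1 member, Eng, against 0.544% of all genes higher and 0.637% lower. In 8 of the 32 all KO libraries lay above all WT libraries, a pattern shown by 3.17% of all genes, and in 0 did all lie below (3.3% of all genes). The members vary together from library to library, so the 8 are not independent observations. The median was 0.11 without KO replicate 1, and -0.00 with sex as a covariate, with 16 genes on each side of 0. No WT library was female, so the sex term rests only on differences within Het and within KO, with Het replicate 3 among the males. The female libraries also all held olfactory bulb RNA, and the part of sex cannot be told apart here. In bulk tissue, a difference in the number of endothelial cells and a difference in RNA per endothelial cell cannot be told apart.

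**Figure D2:**
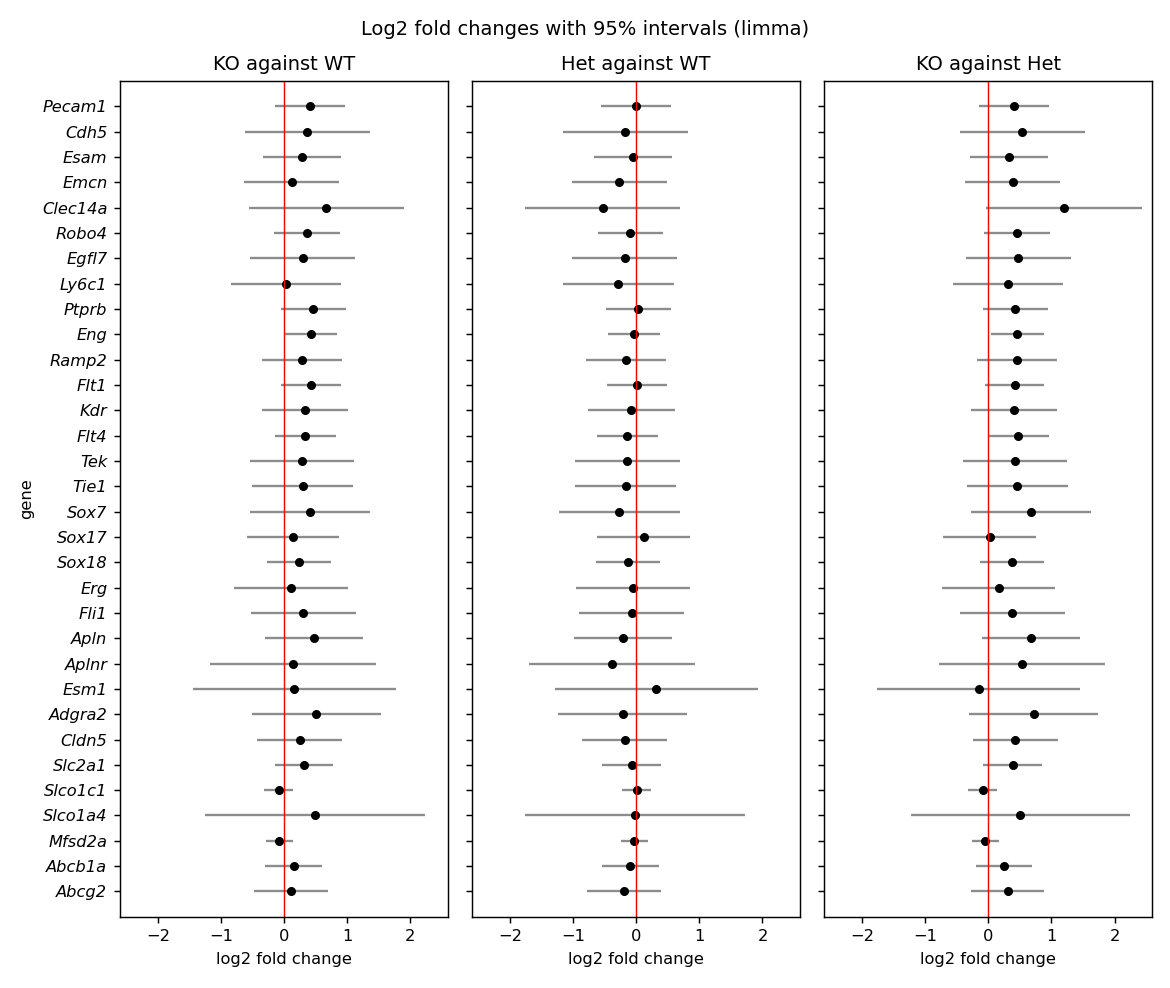
Log2 fold change (horizontal) of each of the 32 genes (vertical) in the comparisons KO against WT, Het against WT and KO against Het, with points for the limma estimate and lines for its 95% interval. Between KO and WT most points lie right of 0, and the intervals of all genes but Eng hold 0.

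Of the 11 surface and junction genes, 11 had positive KO to WT values, with a median of 0.36. Eng encodes endoglin, a co-receptor for TGF-beta family ligands (ENSMUSG00000026814, chr2:32646595-32682669, plus strand). Its normalized counts were 1198, 1131 and 1333 in WT, 1429, 1327 and 880 in Het, and 1831, 1714 and 1386 in KO. The KO libraries all lay above the WT libraries, while Het replicate 3 lay below them. KO exceeded WT by 0.42 ± 0.18 (SE) on the log2 scale, with a 95% interval from 0.01 to 0.84, an unadjusted p of 0.0464 (0.00143 to 0.367 over the alternatives) and an adjusted p of 1.00 by limma. Pecam1, the platelet and endothelial adhesion molecule, was at 992, 999 and 1019 in WT, 1335, 1164 and 649 in Het, and 1524, 1405 and 1099 in KO. WT libraries lay close together and all KO libraries above them, for a log2 fold change of 0.41 ± 0.24. Clec14a, a lectin-like endothelial surface protein, was at 365, 375 and 488 in WT, 553, 406 and 97.5 in Het, and 765, 619 and 568 in KO. It had the largest positive KO to WT value of the 32, 0.67 ± 0.54, and again no overlap with WT. The guidance receptor Robo4 (0.36 ± 0.23) and the receptor phosphatase Ptprb, which restrains TIE signalling (0.46 ± 0.23), were the other 2 genes of this group whose KO libraries all exceeded WT.

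Cdh5 (ENSMUSG00000031871, chr8:104101625-104144511, plus strand) shows how the KO libraries differed among themselves. It was at 1600, 1537 and 1699 in WT, 2442, 1844 and 647 in Het, and 2961, 1877 and 1615 in KO. KO replicate 3 sat within the WT range and KO replicate 1 far above it, and the log2 fold change was 0.37 ± 0.44. The values were 0.28 ± 0.27 for the junction protein gene Esam, 0.12 ± 0.33 for the sialomucin Emcn, 0.29 ± 0.37 for the secreted vessel factor Egfl7 and 0.29 ± 0.28 for Ramp2, a partner of the adrenomedullin receptor. Ly6c1, a surface protein of capillary endothelium, had a different order. It was at 58.2, 70.7 and 136 in WT, 65.3, 60.2 and 78.5 in Het, and 77.1, 57.7 and 135 in KO. Ly6c1 was highest in WT replicate 3 and KO replicate 3, and it has a near-identical neighbour, Ly6c2, with which reads could be split, so its value is uncertain.

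All 5 receptor genes had positive KO to WT values, between 0.29 and 0.43. Kdr encodes VEGFR2, the main signalling receptor for VEGF. It was at 2140, 2253 and 2233 in WT, 2862, 2676 and 1200 in Het, and 3514, 2489 and 2430 in KO. All KO libraries lay above WT, by a log2 fold change of 0.33 ± 0.30. Flt4, which encodes VEGFR3, had the same order with a value of 0.34 ± 0.21. Flt1 encodes VEGFR1, a high-affinity receptor that limits VEGF signalling (ENSMUSG00000029648, chr5:147561604-147726011, minus strand). It was at 950, 1031 and 1383 in WT, 1211, 1267 and 907 in Het, and 1290, 1951 and 1312 in KO. KO replicate 2 was the highest of the 9 libraries and the other KO libraries lay within the WT range, and the log2 fold change was 0.43 ± 0.21. The TIE receptor genes had wider spreads in KO. Tek, the angiopoietin receptor, was at 1313, 648 and 808 in KO against 703, 709 and 760 in WT (0.29 ± 0.36), and Tie1 gave 0.29 ± 0.35.

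The 5 transcription factor genes had positive values with a median of 0.24, and in none did the KO libraries all exceed WT (3.17% of all genes). Sox7 was at 234, 234 and 300 in WT and at 396, 329 and 296 in KO, with a log2 fold change of 0.41 ± 0.42. Sox17, linked to arterial identity and barrier signalling, was at 0.14 ± 0.32 and Sox18 at 0.24 ± 0.22. Among the ETS factors Erg was at 267, 223 and 230 in WT and at 369, 190 and 248 in KO (0.11 ± 0.40), and Fli1 gave 0.31 ± 0.37. KO replicate 1 was high and KO replicate 2 low in Sox17, Sox18, Erg and Fli1, each of which lay below all WT libraries in KO replicate 2.

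The 4 tip cell and sprouting genes had positive values between 0.14 and 0.51. Adgra2, the GPR124 co-receptor through which Wnt7 reaches brain endothelium, was at 1014, 959 and 1184 in WT, 1652, 1120 and 401 in Het, and 2048, 1358 and 1200 in KO. KO replicate 3 exceeded WT replicate 3 narrowly, and the log2 fold change was 0.51 ± 0.45. Apln encodes apelin, a peptide made by tip cells (ENSMUSG00000037010, chrX:48025146-48034853, minus strand). It was at 284, 268 and 398 in WT, 311, 250 and 254 in Het, and 325, 796 and 311 in KO. KO replicate 2 stood alone, at 251% of the WT mean, and the other 2 KO libraries lay within the WT range (0.47 ± 0.34). Its receptor gene Aplnr had the opposite order in KO: 2106, 619 and 1157, against 1055, 1000 and 1059 in WT (0.14 ± 0.58). Esm1 was at 20.9 to 22.1 in WT, 29.2, 82.0 and 7.84 in Het, and 20.6, 38.9 and 17.6 in KO (0.16 ± 0.71). The high Esm1 value in Het replicate 2, at 381% of the WT mean, came in the library with the most choroid plexus RNA, whose part in it was not tested.

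Barrier genes had the smallest median between KO and WT, 0.16 over 7 genes, with 5 positive and 2 negative. In 0 of the 7 did KO and WT separate, where 3.17% of all genes were higher and 3.3% lower. At such shares, a count of 0 among so few genes says little. The gap from the other roles was not tested. Cldn5 was at 2028, 1986 and 2028 in WT, 2674, 1917 and 1088 in Het, and 3094, 1920 and 2293 in KO. WT libraries lay within a narrow range, and KO replicate 2 lay just below it (0.25 ± 0.29). Slc2a1 (ENSMUSG00000028645, chr4:119108711-119137983, plus strand) was at 2712, 2651 and 3205 in WT, 3408, 2999 and 1952 in Het, and 3617, 4174 and 2951 in KO. The group ranges overlapped, and KO exceeded WT by 0.32 ± 0.20 on the log2 scale. The efflux pump genes Abcb1a, for P-glycoprotein, and Abcg2 gave 0.16 ± 0.20 and 0.11 ± 0.26. Abcb1a has a close paralog, Abcb1b, so its share of reads is uncertain. Slco1a4 was near the filter, between 6.71 and 45.0, where 1 read is worth 0.674 to 1.22 in these libraries (0.49 ± 0.76).

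Mfsd2a and Slco1c1 were the steadiest of the 32. Mfsd2a (ENSMUSG00000028655, chr4:122946850-122961188, minus strand) was at 1095, 1147 and 1125 in WT, 1204, 1137 and 971 in Het, and 1120, 975 and 1104 in KO. Its highest library exceeded its lowest by 1.24 times, against a median of 2.80 times over the 32 genes. Over all genes tested with no value of 0 that median was 1.35 times, so such steadiness is common. On the log2 scale KO differed from WT by -0.08 ± 0.09, and the 95% interval ran from -0.29 to 0.14. Slco1c1 was at 1516, 1934 and 1660 in WT, 1620, 1805 and 1684 in Het, and 1545, 1487 and 1773 in KO, and its value was -0.09 ± 0.10, with an interval from -0.32 to 0.15. These intervals leave room for a loss or gain of that size. Slco1c1 is also known from choroid plexus, which bulk RNA does not separate.

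**Figure D3:**
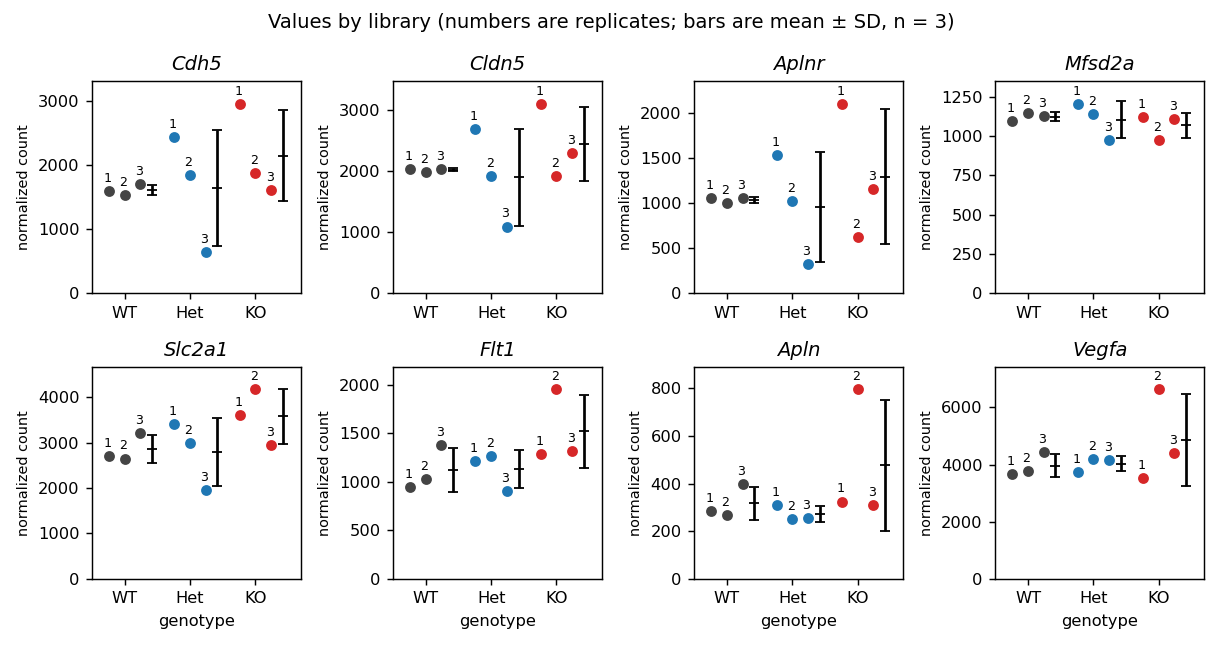
Normalized counts (vertical, from 0) of 7 endothelial genes and Vegfa in each library by genotype (horizontal), with replicate numbers beside the points and bars for mean ± SD (n = 3). WT libraries cluster tightly for Cdh5, Cldn5 and Aplnr, Het replicate 3 is lowest for these, and KO replicate 2 is highest for Slc2a1, Flt1, Apln and Vegfa.

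The promoters of 4 genes with contrasting patterns are shown as the 250 bases before the start site, 5′ to 3′ on the gene's strand, from RefSeq for GRCm38.p6. Eng had the smallest p of the 32, Flt1 and Apln were highest in KO replicate 2, and Mfsd2a varied least. Capitals mark AGGAAG or CGGAAG on either strand, letters that ETS factors can bind.
Eng, chr2:32646345-32646594, plus strand: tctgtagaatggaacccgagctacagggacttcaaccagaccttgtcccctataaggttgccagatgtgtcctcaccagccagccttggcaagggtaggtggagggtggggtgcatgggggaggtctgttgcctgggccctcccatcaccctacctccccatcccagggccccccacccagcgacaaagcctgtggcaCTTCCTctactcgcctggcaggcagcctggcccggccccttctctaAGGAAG
Flt1, chr5:147726012-147726261, minus strand: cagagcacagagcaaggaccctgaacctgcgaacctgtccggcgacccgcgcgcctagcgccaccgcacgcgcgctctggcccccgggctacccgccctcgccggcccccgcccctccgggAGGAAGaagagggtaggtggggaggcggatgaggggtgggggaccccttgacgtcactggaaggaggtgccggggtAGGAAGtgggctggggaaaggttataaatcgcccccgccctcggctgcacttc
Apln, chrX:48034854-48035103, minus strand: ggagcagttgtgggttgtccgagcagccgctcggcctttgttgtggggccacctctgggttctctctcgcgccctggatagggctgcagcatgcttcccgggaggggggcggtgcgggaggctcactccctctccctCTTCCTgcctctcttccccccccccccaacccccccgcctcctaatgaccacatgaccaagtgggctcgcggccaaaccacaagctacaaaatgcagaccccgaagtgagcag
Mfsd2a, chr4:122961189-122961438, minus strand: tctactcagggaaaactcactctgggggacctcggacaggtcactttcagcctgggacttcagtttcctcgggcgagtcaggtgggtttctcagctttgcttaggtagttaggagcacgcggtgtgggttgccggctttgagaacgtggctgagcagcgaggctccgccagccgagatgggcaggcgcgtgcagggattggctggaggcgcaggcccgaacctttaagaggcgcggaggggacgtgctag
These windows hold 2 ETS matches in Eng, 2 in Flt1, 1 in Apln and 0 in Mfsd2a. The hypoxia element letters ACGTG or GCGTG, on either strand, occur 4 times in Mfsd2a, 1 time in Flt1 and 0 times in Eng and Apln. The SOX letters ACAAAG or ACAATG, on either strand, occur 1 time each in Eng and Apln. No motif contains another, although neighbouring matches can share bases. RefSeq windows of 300 bases, from 250 before to 50 after a start, were found for 21 of the 32 genes, 28 windows in all. ETS letters were in 57.1% of these and in 46.5% of all 32851 windows of that length, SOX letters in 35.7% and 28.6%, and hypoxia letters in 39.3% and 43.8%. Median GC content was 52.8% in the 28 windows and 52.7% in all windows. A match is only a match of letters.

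Het libraries pointed the other way on average. Between Het and WT, 27 of the 32 genes had negative values, with a median of -0.11 against -0.01 over all genes. limma called 0 of 32 (0.0% of all genes higher and 0.0% lower). At an unadjusted p under 0.05 there were 0 members, against 0.962% of all genes higher and 0.644% lower, and in no member did the groups separate (3.36% of all genes higher, 3.31% lower). The most negative was Clec14a at -0.53 ± 0.54, followed by Aplnr at -0.38 ± 0.58. Esm1 was the most positive at 0.32 ± 0.71. This average hides unlike libraries, with medians relative to the WT mean of 0.40, 0.09 and -0.86 in Het replicates 1, 2 and 3. Without Het replicate 3, 29 of the 32 were positive, with a median of 0.24, and 3 had an unadjusted p under 0.05. Of all genes, 1.15% were then higher and 1.26% lower at that p.

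Between KO and Het, 29 of the 32 were positive, with a median of 0.42 against 0.00 over all genes. Here limma called 0 of 32 (0.0% of all genes higher and 0.0% lower), and 1, Eng, had an unadjusted p under 0.05 (0.46 ± 0.18, adjusted p of 0.942), where 1.42% of all genes were higher and 2.17% lower. The KO libraries all exceeded the Het libraries for 4 genes, Clec14a, Robo4, Flt1 and Apln (3.15% of all genes higher), and lay below them for 0 (4.68% of all genes). With the replicate number as a block, 3 members, Eng, Clec14a and Flt4, had an unadjusted p under 0.05, where 3.09% of all genes were higher and 3.44% lower, and again 0 were called. Clec14a had the largest difference, 1.20 ± 0.54, with an interval from -0.03 to 2.43. Without Het replicate 3 the median was 0.05 and 22 of 32 were positive.

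Within a genotype the libraries differed widely, and most members moved together. KO replicate 1 held the highest value of 23 of the 32 genes, where it held the highest of 15.1% of all genes. Het replicate 3 held the lowest of 29 of the 32, where it held the lowest of 18.8% of all genes. It lay below all WT libraries for 30 of the 32, against 31.3% of all genes, the exceptions being Ly6c1 and Slco1c1. Relative to the WT mean, the median of the 32 on the log2 scale was 0.62, 0.09 and 0.19 in KO replicates 1, 2 and 3, and 0.40, 0.09 and -0.86 in Het replicates 1, 2 and 3. In WT it was between -0.05 and 0.07. The median coefficient of variation of the 32 was 7.69% in WT, 37.9% in Het and 24.5% in KO, beside 7.79%, 9.75% and 10.3% over all genes tested. In Het replicate 1, 25 of the 32 lay above every WT library, against 27.0% of all genes.

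**Figure D4:**
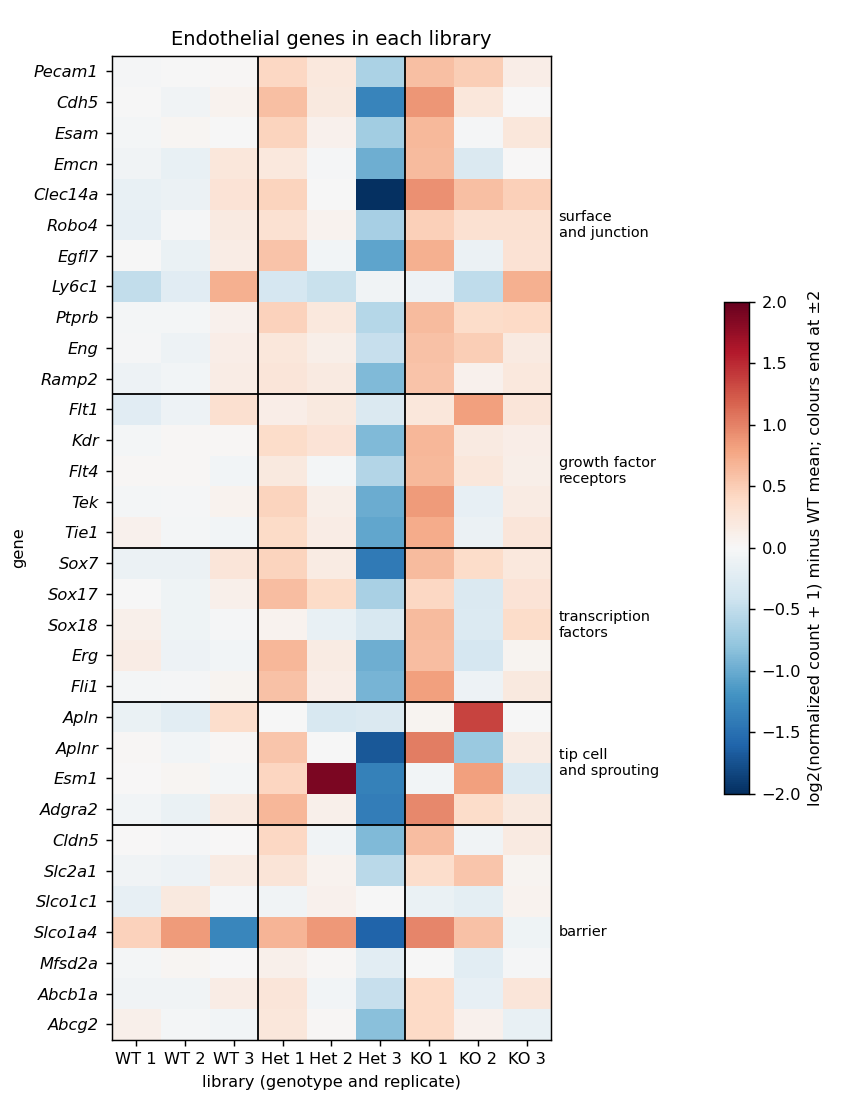
Difference of log2(normalized count + 1) from the WT mean (colour, with scale ends at ±2) for the 32 genes (rows, grouped by role) in the 9 libraries (columns). Het replicate 3 is blue for nearly every gene and KO replicate 1 red for most, while KO replicate 2 mixes red and blue.

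Marker lists of other cells moved with these libraries, and their part in the endothelial values was not tested. Of 12 meningeal fibroblast markers, 12 were positive in KO against WT (median 0.40) and 12 negative in Het (median -1.24), where the negative values rest on Het replicate 3. Their summed level was 13143 to 16576 in WT, 529 to 26022 in Het and 15714 to 31687 in KO, with none listed at 0. The median of this list relative to WT was 0.90, 0.49 and -0.03 in KO replicates 1, 2 and 3, and 0.73, 0.05 and -4.75 in Het replicates 1, 2 and 3. Of 14 pericyte and smooth muscle markers, the cells that wrap vessels, 14 were positive in KO (median 0.26), with sums of 13000 to 15294 in WT, 8620 to 18208 in Het and 13678 to 20392 in KO. Of 8 microglial markers, 7 were positive, with sums of 1917 to 2174 in WT, 1134 to 2655 in Het and 1903 to 2846 in KO. The 7 blood markers were split, 3 positive and 4 negative, with sums of 23156 to 33433 in WT, 35885 to 45309 in Het and 15126 to 52992 in KO.

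Olfactory bulb RNA was present in 1 WT, 1 Het and 2 KO libraries. With it as a covariate the KO to WT median of the 32 genes was 0.19, with 27 positive. Among the libraries without it, 2 WT and 1 KO, the median was 0.21, with 28 positive. Among the libraries with it only 1 was WT, so no value was fitted there. All WT libraries were male and 2 of 3 KO libraries female, and the male KO library, KO replicate 3, also lacked olfactory bulb RNA. In that library 19 of the 32 exceeded every WT library, against 26.6% of all genes.

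**Figure D5:**
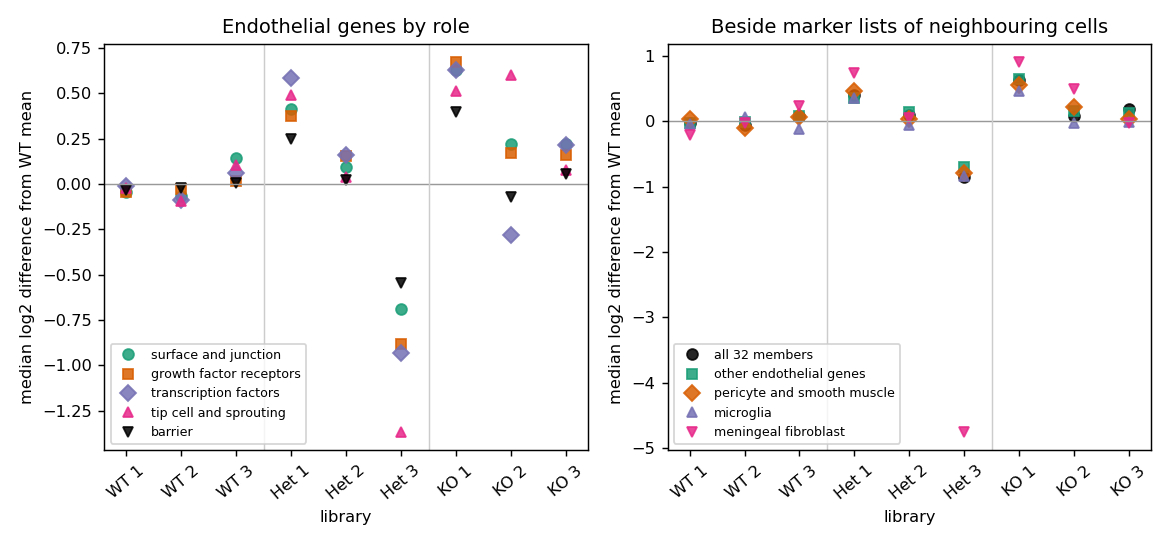
Median difference from the WT mean on the log2 scale (vertical) in each library (horizontal), for the 5 roles of the 32 genes (left) and for all 32 beside 4 marker lists (right). Het replicate 3 lies at -0.86 for the 32 genes and at -4.75 for meningeal fibroblast genes, and the roles spread apart most in Het replicate 3 and KO replicate 2.

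The roles did not follow one another in KO replicate 2. In that library 14 of the 32 genes lay above every WT library, against 27.8% of all genes, and 13 below, against 29.4%. The role medians there were 0.60 for tip cell and sprouting genes, 0.22 for surface and junction genes, 0.17 for receptors, -0.07 for barrier genes and -0.28 for transcription factors. The tip cell and sprouting genes disagreed among themselves, from -0.74 for Aplnr to 1.35 for Apln. Relative to the WT mean, Apln was at 251%, Esm1 at 181%, Flt1 at 174%, Clec14a at 151% and Slc2a1 at 146%. At the other end Aplnr was at 59.7%, Ly6c1 at 65.3%, Erg at 79.1%, Emcn at 81.4% and Sox17 at 82.0%. The Apln to Aplnr ratio of normalized counts was 1.29 in KO replicate 2 and 0.154 to 0.795 in the other libraries. Vegfa, the ligand of Flt1 and Kdr, was at 6629 in KO replicate 2 and between 3524 and 4427 elsewhere. Angpt2, a TIE2 ligand made by sprouting vessels, gave 0.527 relative to Tek in this library and 0.0598 to 0.285 in the others. Angpt2 and the ratios were chosen after their values were seen.

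In Het replicate 3, the library with the lowest sum over the 32 genes, barrier genes had the role median closest to WT. The role medians there were -0.54 for barrier genes, -0.69 for surface and junction genes, -0.88 for receptors, -0.93 for transcription factors and -1.37 for tip cell and sprouting genes. Cdh5 stood at 40.1% of its WT mean, Cldn5 at 54.0%, Abcg2 at 56.1%, Slc2a1 at 68.3%, Abcb1a at 72.6%, Mfsd2a at 86.5% and Slco1c1 at 98.8%. The barrier gene Slco1a4, near the filter, went the other way at 24.9%, further from WT than Cdh5. The ratio of Cldn5 to Cdh5 was 1.68 in this library against 1.25 ± 0.0513 in WT (SD, n = 3). That of Mfsd2a to Cdh5 was 1.5 against 0.698 ± 0.0435. The ratio of the surface gene Pecam1 to Cdh5 was higher too, at 1.00 against 0.623 ± 0.0250. A higher ratio to Cdh5 was therefore not particular to barrier genes. Cldn5 lay below Pecam1 (64.7% of its WT mean) and Eng (72.1%), and above Emcn (50.3%) and Clec14a (23.8%). In KO replicate 1, where endothelial values were highest, the ratios to Cdh5 were 1.04 for Cldn5, 0.378 for Mfsd2a and 0.515 for Pecam1. These are values of single libraries, with no replicate of their own.

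Genes of the same pathways, from lists drawn up by function, gave 0 calls by limma in the comparison of KO with WT. Of 22 other endothelial genes, 22 had positive values (median 0.31), 0 had an unadjusted p under 0.05, and in 10 the KO libraries all exceeded WT (3.17% of all genes). These genes too vary together from library to library. The adhesion receptor Adgrf5 was at 816 ± 45.9 in WT and 1154 ± 179 in KO (0.49 ± 0.22), and Vwf, von Willebrand factor, at 1336 ± 163 and 1784 ± 75.2 (0.42 ± 0.23). Of 10 tight junction partners 7 were positive (median 0.31). The tricellular junction gene Marveld2, which is low here, was at 34.8, 31.5 and 39.9 in WT, 36.3, 37.5 and 35.9 in Het, and 82.8, 51.4 and 48.9 in KO. Its KO libraries all exceeded WT (3.17% of all genes) and Het (3.15% of all genes). The KO to WT value was 0.74 ± 0.25 (unadjusted p = 0.0179 and adjusted p = 1.00 by limma), where 0.544% of all genes were higher at an unadjusted p under 0.05. Occludin, Ocln, was at 212 ± 5.20 in WT and 304 ± 76.1 in KO (0.49 ± 0.26). Of 7 permeability and transcytosis genes 5 were positive (median 0.25), including Icam1 (0.53 ± 0.34) and the caveolin Cav1 (0.25 ± 0.17).

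Lists of signals that act on the vessels also gave 0 calls. Of 7 VEGF ligands and co-receptors 4 were positive (median 0.03), with Vegfa at 0.25 ± 0.20 and Vegfb at -0.11 ± 0.13. Of 13 genes of Wnt barrier signalling, Sox17 among them, 9 were positive (median 0.06), with the Wnt7 co-receptor Reck at 0.29 ± 0.23 and the receptor Fzd4 at 0.21 ± 0.19. Of 9 Notch genes 6 were positive (median 0.09), with the Notch targets Hey2 at 0.84 ± 0.48 and Heyl at 0.66 ± 0.44. Of 6 genes listed under angiopoietin ligands and TIE regulators 6 were positive (median 0.26), with Angpt2 at 0.51 ± 0.79. That list also held Angptl4, an angiopoietin-like gene rather than an angiopoietin, at 0.37 ± 0.28. Of 12 other barrier transporters 11 were positive (median 0.12), with the transferrin receptor Tfrc at 0.15 ± 0.08 and the zinc transporter Slc39a10 at 0.08 ± 0.04. Many of these genes are also expressed by neurons, glia or mural cells.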

How the data were processed

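The labels' protocols name Illumina's TruSeq Stranded mRNA preparation, a poly(A) kit that keeps strand. The deposited table gives 1 signal value per gene and library, not in whole numbers. Its name and its nearly equal library totals and medians led to reading it as gene counts that the authors scaled by size factors; no label describes that step. Among tools, the submitters list DESeq2 1.19.11, Salmon 0.11.2 and R 3.6.0, and as build GRCm38, without saying what each did. The gene filter was not given. Whole reads could not be recovered: between 61.0% and 78.5% of values below 6 lay within 0.1 of a whole step, so no count test was used. Depth is the library total divided by that step.

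Values were taken as log2(value + 1), which understates changes of low genes, for genes with a mean of at least 10. limma 3.58.1 in R 4.3.3 (lmFit, eBayes with trend) fitted 1 mean per genotype over 9 libraries. Tests were two-sided, with Benjamini-Hochberg adjustment over all genes and a threshold of 0.05. Errors are SDs over libraries or limma standard errors (SE), and log2 fold changes are given as value ± SE. The fit was tested on simulated data. Symbols, positions and exon lengths came from GENCODE M21 (GRCm38), which matched 18783 of 18820 gene IDs.

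The members, roles and lists were chosen with earlier results of these data known. All 32 members are named, with the 2 genes of smallest p between KO and WT from each pathway list. Marker lists covered pericytes, meninges, blood, microglia, olfactory bulb, choroid plexus and Y-linked genes. As a check of pairing, deviations from the group means were correlated between libraries. Between Het and KO, same-numbered libraries had correlations of 0.45, 0.10 and 0.47, each over 0.1, and other pairs -0.46 to 0.15. The value for replicates 2 lay within the range of the other pairs, so pairing is not shown there. The block is given beside that comparison only as an alternative. With WT, same-numbered libraries had -0.07 to 0.25 and were not taken as pairs. The labels give no source of pairing, and Het and KO replicates 1 share olfactory bulb RNA and female sex. Alternatives were the replicate block, pseudocount, filter, scaling, the groups in the fit, each library left out, olfactory bulb RNA, sex and library weights.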

Additional observations from a re-analysis of the deposited data

How the results depend on the processing

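Of the 32 genes, limma called 0 in each comparison under each alternative run. The median KO to WT log2 fold change was 0.29, and -0.0042 with sex as a covariate, where no WT library was female. Leaving out 1 library gave medians of 0.11 to 0.39 between KO and WT, -0.31 to 0.24 between Het and WT and 0.05 to 0.64 between KO and Het. Library weights gave 0.31, 0.12 and 0.21. Over all genes, limma called 0 in each comparison, and 1 between Het and WT with only these groups in the fit or with library weights, and 1 between KO and Het with only these groups. Leaving out 1 library gave 0 to 1 genes called in each of the 3 comparisons. None of these genes was a member. The members with an unadjusted p under 0.05 between KO and WT numbered 1, but 7 with only these groups in the fit, 9 without Het replicate 3 and 10 higher and 1 lower with library weights, where 1.2%, 1.31% and 4.45% of all genes were higher. It was 0 with upper-quartile rescaling, with olfactory bulb RNA or sex as a covariate, and without WT replicate 1, WT replicate 2, Het replicate 2 or KO replicate 1, and 2 with quantile normalization or without Het replicate 1. Pseudocounts, filters and scalings moved the medians by less than the spread between libraries. The replicate block left the medians at 0.29, -0.11 and 0.42 with 0 genes called; it changed no call, and moved the members with an unadjusted p under 0.05 from 1 to 3 between KO and Het. Leaving out KO replicate 3 also leaves only female KO libraries. Low genes such as Slco1a4 and Esm1 rest on few reads.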

Other observations

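The genes named here were chosen from the lists after their values were seen. In Het replicate 3 some vessel-associated genes were far lower than the 32 endothelial genes. Lyve1, a hyaluronan receptor of lymphatic endothelium and border macrophages, was at 6.57 there and at 186 to 440 in the other libraries. Svep1, an extracellular protein that acts with TIE signalling, was at 10.5 against 195 to 521. Acta2, the smooth muscle actin, was at 10.7 against 90.5 to 424. Angpt2 was at 21.8 against 169 to 341. Other genes stood near their WT means in this library: Plvap, which forms the diaphragms of fenestrated endothelium, was at 114% of WT, the ETS factor gene Ets2 at 97.9% and the TIE2 ligand gene Angpt1 at 102%. These are values of 1 library, and the low meningeal RNA there moved with them; its part was not tested.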
